A study of Mus musculus with 7 samples.

Results

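The interleukin-1 receptor family comprises the cell-surface receptors through which IL-1, IL-18, IL-33 and IL-36 act. Its 7 genes described here are Il1r1, Il1r2, Il1rl1, Il1rl2, Il18r1, Il18rap and Il1rap, taken from a list of names, with no threshold on a measured value, out of 21627 protein-coding genes on chromosomes 1 to 19 and X. For each gene the window was the gene and 20 kb beyond both ends, and the 6 members on chromosome 1 were also mapped as 1 locus. Il1rap lies alone on chromosome 16.

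The cells were leukaemia cells of BALB/c mouse bone marrow into which retroviruses had brought mutant forms of CSF3R (the G-CSF receptor) and of CEBPA (a transcription factor that granulocytes need). All samples carried both mutant genes. They were grown for 48 h with DMSO, the solvent, or with 4 nM GSK-LSD1, an inhibitor of the demethylase LSD1. Each condition had 1 library each for H3K4me1, H3K4me3 and H3K27Ac, and there was 1 input library, 7 libraries in all. How many animals the cells came from, and whether they were 1 clone or a mixed culture, is not stated in the labels. There were no replicates and no untransduced cells, so no difference below has a replicate check and none was tested.

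Signalling by the family follows a common scheme. A ligand binds its own receptor chain, a shared or partner chain then joins, and the paired intracellular TIR domains recruit MYD88 and IRAK kinases, which activate NF-kB. Il1r1 encodes the signalling receptor for IL-1, Il1r2 a decoy that binds IL-1 without signalling, and Il1rap the accessory chain used by the IL-1, IL-33 and IL-36 receptors. Il1rl1 encodes ST2, the IL-33 receptor known best in mast cells, basophils and innate lymphoid cells. Il1rl2 encodes the IL-36 receptor, while Il18r1 and Il18rap encode the ligand-binding and accessory chains for IL-18. LSD1 removes methyl groups from mono- and dimethylated lysine 4 of histone H3, and the mono- and trimethylated forms of that residue were measured. H3K4me1 is commonly found at enhancers, H3K4me3 at promoters, and H3K27Ac at active forms of either.

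Each condition had 1 deposited segmentation, in which every 200 bp of the genome carries 1 of 6 states, E1 to E6. Which marks lie behind a state is not stated, so the states are described by where they lay. E3 had the largest coverage, 73.3% of the genome in DMSO and 70.1% in GSK-LSD1, and is called background; all other states are called marked. At 21044 annotated transcription starts, E5 was found at 25.1 and 16.5 times its genome share in DMSO and GSK-LSD1, and E6 at 21.2 and 14.9 times, so E5 and E6 together are called start-type chromatin. E1, rare in DMSO, and E6 both covered more of the genome in GSK-LSD1: E1 went from 0.483% to 4.72% and E6 from 0.217% to 2.08%. Depth is unknown, and the same state number may mean other marks under the other condition. In such bulk chromatin, a state held by more cells cannot be told apart from more mark per cell.

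The 7 genes have 11 annotated starts, all on the plus strand, and 4 upstream regions are shown as examples of the states found there. The start of Il1rl2 was E5 in both segmentations. The pair of Il1rl1 starts, a distal and a proximal one that produce alternative first exons, became E6 in GSK-LSD1. The start of Il18rap was E6 already in DMSO. Each run is the 250 bases before the start, 5′ to 3′ on the plus strand, from RefSeq (GRCm38.p6), with capitals marking every match to the motifs spelled out after them.
Il1rl2, chr1:40324339-40324588: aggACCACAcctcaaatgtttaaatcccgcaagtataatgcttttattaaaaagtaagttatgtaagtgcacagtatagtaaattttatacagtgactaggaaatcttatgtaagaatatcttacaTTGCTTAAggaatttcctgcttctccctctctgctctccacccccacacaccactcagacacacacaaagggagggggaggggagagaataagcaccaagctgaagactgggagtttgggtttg
Il1rl1 distal start, chr1:40429320-40429569: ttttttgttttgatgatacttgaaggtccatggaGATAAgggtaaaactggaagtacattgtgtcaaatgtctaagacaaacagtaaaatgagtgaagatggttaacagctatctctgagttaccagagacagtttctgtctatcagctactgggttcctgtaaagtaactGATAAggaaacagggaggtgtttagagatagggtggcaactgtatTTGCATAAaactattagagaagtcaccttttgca
Il1rl1 proximal start, chr1:40439379-40439628: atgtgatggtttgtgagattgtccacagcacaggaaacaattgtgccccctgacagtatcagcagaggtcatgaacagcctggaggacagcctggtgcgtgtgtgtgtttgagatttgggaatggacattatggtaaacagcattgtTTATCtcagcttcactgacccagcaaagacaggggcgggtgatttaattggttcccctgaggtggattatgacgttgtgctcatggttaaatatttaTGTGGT
Il18rap, chr1:40515112-40515361: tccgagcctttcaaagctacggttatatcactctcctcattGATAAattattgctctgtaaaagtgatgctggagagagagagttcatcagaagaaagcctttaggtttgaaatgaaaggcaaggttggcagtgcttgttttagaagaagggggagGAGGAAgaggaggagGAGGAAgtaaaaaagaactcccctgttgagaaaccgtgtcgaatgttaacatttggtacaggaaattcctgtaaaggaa

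The motifs, searched on both strands, were GATAA (GATA factors), GAGGAA (PU.1), TTGCNNAA (C/EBP), TTCNNNGAA (STAT), TGTGGT (RUNX) and AATCACNGC (GFI1), and no matches overlapped in these runs. They were chosen after the states of the members had been seen. GATAA occurs in 20.5% of the 21044 upstream regions, GAGGAA in 22.5%, TTGCNNAA in 9.18%, TTCNNNGAA in 6.64%, TGTGGT in 12.2% and AATCACNGC in 0.903%. The distal Il1rl1 region holds GATAA at 216 and 79 bases before the start and a C/EBP-type match, TTGCATAA, at 34 bases. In the proximal Il1rl1 region there is a GATA match at 103 bases and a RUNX match at 6 bases. Il18rap has a GATA match at 209 bases and PU.1 matches at 94 and 79 bases, and Il1rl2 has a C/EBP-type match at 124 bases and a RUNX match at 247 bases. Among the regions not shown, those of Il1rap, the Il1r1 start at 40266586 and the first pair of Il18r1 starts held none of the motifs. The last Il18r1 region held STAT and PU.1 matches but no GATA match. All Il18r1 starts were E6 in both segmentations, like that of Il18rap. Il1r2 had a GATA and a STAT match, and the other Il1r1 start a C/EBP-type match. These matches are descriptions of the letters, and binding was not measured.

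The members' upstream regions differed widely in CpG dinucleotides. Il1rap had 30 CpG in 250 bases and Il1r2 had 14, the Il1r1 start with start-type chromatin had 7, Il18rap 4, the proximal Il1rl1 start 3, Il1rl2 1 and the distal Il1rl1 start 0. The regions of the 3 Il18r1 starts, of which the first pair overlap, had 3, 7 and 6. Over all annotated starts that were E5 in DMSO the median was 17.0 and the lower quartile 11.0. Of the 5 member starts in E5, those of Il1r1, Il1rl2 and distal Il1rl1 lay under that quartile, Il1r2 lay between it and the median, and Il1rap lay above the median. CpG number did not order which E5 starts became E6 across the genome. Among starts that were E5 in DMSO and either E5 or E6 in GSK-LSD1, 55.7% (Wilson 95% interval 51.8 to 59.5) were E6 with 0 to 4 CpG, 46.6% (44.0 to 49.2) with 5 to 9, 51.1% (49.6 to 52.6) with 10 to 19, and 54.6% (53.0 to 56.1) with 20 or more. This split was also chosen after the values had been seen.

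All 7 genes had start-type chromatin at an annotated start in both segmentations. In DMSO every member had E5 or E6 at 1 or more of its starts, against 55.6% of the 17273 genes with an annotated start. That share was not computed for GSK-LSD1, where 25.3% of the 21044 annotated starts were E5 and 31.0% E6. E6 itself lay at a start of 2 of 7 members in DMSO, Il18r1 and Il18rap, against a background of 4.74%. In GSK-LSD1 it lay at a start of 3 of 7, the same pair and Il1rl1, against 31.6% of genes. The members' share in GSK-LSD1 was thus not far from that of all genes.

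Around the genes, start-type chromatin covered a larger area in GSK-LSD1 in 7 of 7 windows, against a background of 66.7% of all genes. Of the 21627 genes, 14425 had a larger area, 963 a smaller one and the rest an equal one. Among all genes, windows that differed at all were thus mostly larger, so the direction is not particular to the family. The median difference was 5.0 kb (range 1.2 to 10.6 kb), and over all genes it was 1.40 kb with an upper quartile of 4.00 kb. Counting E5 alone, 3 windows had more and 4 had less, and counting E4 with E5 and E6, 4 had more and 3 had less, so the direction depends on which states are counted. E1 and E6 together were larger in 7 of 7 windows (background 60.1%), with a median difference of 26.6 kb against 2.60 kb over all genes. Over all genes they were smaller in only 200. Marked chromatin was larger in 5 of 7 windows and smaller in none (background 30.7%), with a median difference of 18.6 kb against 0 kb over all genes. The other two windows, those of Il1rl1 and Il18r1, were wholly marked in both segmentations. Long windows can hold more of any state, and neighbouring members' windows share bases: 39.9 kb for Il1rl1 and Il18r1, whose genes lie 133 bp apart, 31.6 kb for Il1r1 and Il1rl2, 25.5 kb for Il18r1 and Il18rap, and 2.69 kb for Il1rl2 and Il1rl1.

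By the share of the window in start-type chromatin, the order in DMSO was Il18r1 (29.8%), Il1rl1 (21.5%), Il18rap (16.2%), Il1rl2 (2.65%), Il1r1 (2.24%), Il1rap (1.80%) and Il1r2 (1.74%). The 3 receptor chains for IL-33 and IL-18 thus stood above the other members, and among the lower 4 the 95% Wilson intervals overlapped. In GSK-LSD1 the order was Il18r1 (42.6%), Il1rl1 (32.0%), Il18rap (23.3%), Il1rl2 (8.67%), Il1r1 (4.19%), Il1r2 (3.23%) and Il1rap (2.44%). There the intervals of the last 3 overlapped, and that of Il1rl2 (6.33 to 11.8) lay above them.

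**Figure D1:**
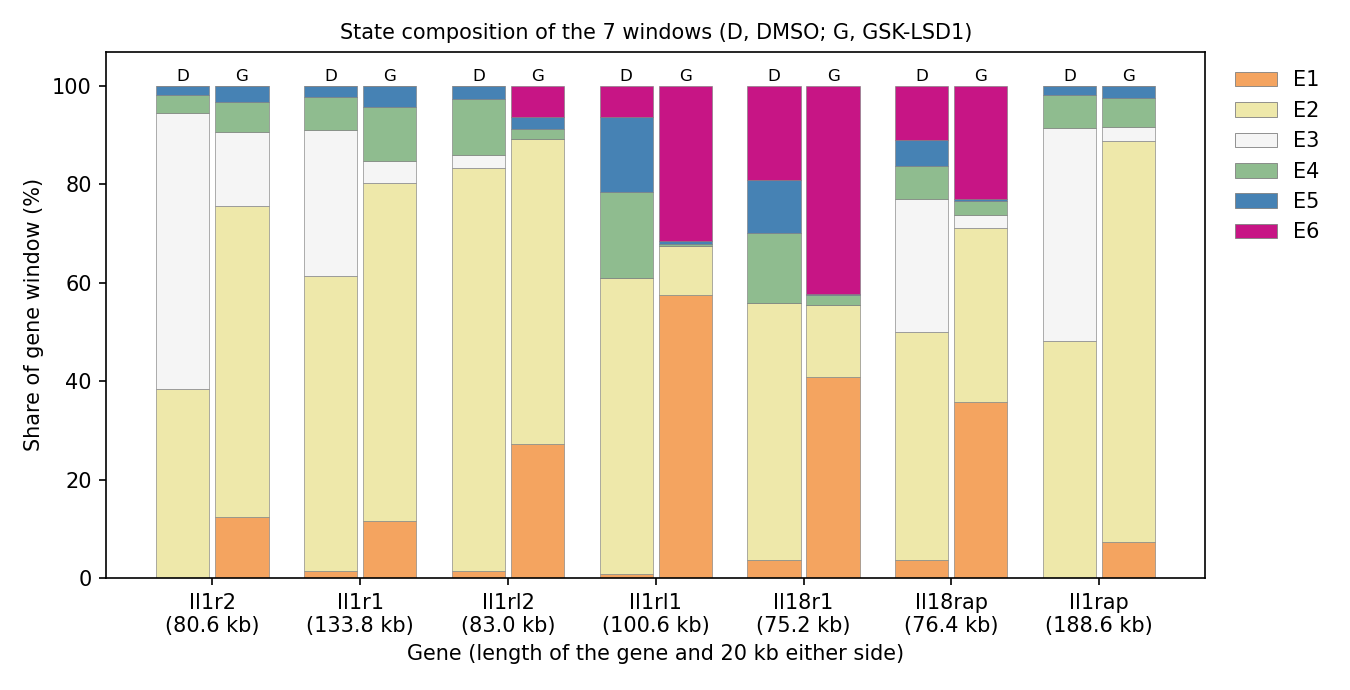
State composition of each member's window, as a percentage of its 200 bp bins, in DMSO (D) and GSK-LSD1 (G), 1 segmentation each; the window length is given under each gene. E1 and E6 together fill 88.9% of the Il1rl1 window and 83.2% of the Il18r1 window in GSK-LSD1, while the windows of Il1r2, Il1r1 and Il1rap hold no E6 in either segmentation.

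The IL-1 receptor Il1r1 (chromosome 1, 40222480 to 40316201, GRCm38) kept E5 at its internal start. Of its 2 annotated starts, the upstream one (40225080) was E4 in DMSO and E2 in GSK-LSD1 and lay 37921 and 38321 bp from the nearest start-type chromatin. The internal start (40266586) was E5 in both, in a region of 1.2 kb under DMSO and 2.4 kb under GSK-LSD1. In its 133.8 kb window, start-type chromatin covered 3.0 kb in DMSO (of which 1.6 kb lay in the gene itself; 2.24% of bins, Wilson 95% interval 1.36 to 3.67) and 5.6 kb in GSK-LSD1 (4.19%, 2.91 to 5.98), so the intervals overlap. The difference, 2.6 kb, stood at the 63.6th percentile of all genes and was 6.0 kb with flanks of 50 kb. Inside the gene the larger difference was in background. E3 covered 36.4 kb of the 93.8 kb gene in DMSO and none of it in GSK-LSD1, where E2 covered 71.0 kb against 48.4 kb in DMSO.

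Il1r2, the decoy receptor (chromosome 1, 40084692 to 40125230), also kept E5 at its start, in a region of 1.4 kb under DMSO and 2.6 kb under GSK-LSD1, and these were also the totals of start-type chromatin in its 80.6 kb window. The 1.2 kb difference lay at the 48.0th percentile of all genes, near their median; with flanks of 50 kb, which reach beyond the cluster, it was 11.4 kb. Background covered 25.2 kb of the 40.6 kb gene in DMSO and 0 kb in GSK-LSD1, and E2 covered 11.8 and 33.2 kb. Marked chromatin in the window went from 35.4 kb (43.9%, 39.2 to 48.8) to 68.6 kb (85.1%, 81.3 to 88.3), at the 94.4th percentile. The start region is shared with a long noncoding RNA, Gm16894, annotated at 40076212 to 40085851, and states cannot be assigned to either transcript.

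Il1rap, the accessory chain (chromosome 16, 26581509 to 26730128), had the family's largest difference in marked chromatin in kb, in the longest window; as a share of the window Il1r2 differed about as much. In its 188.6 kb window marked chromatin covered 107.2 kb in DMSO (56.8%, 53.7 to 60.0) and 183.0 kb in GSK-LSD1 (97.0%, 95.7 to 97.9), at the 99.0th percentile of all genes. Most of it was E2, with 91.0 kb under DMSO and 153.6 kb under GSK-LSD1. Of the background bins of DMSO, 87.2% (83.6 to 90.1) were E2 in GSK-LSD1, against 8.30% over the genome. The start remained E5, in a region of 2.8 kb under DMSO and 3.8 kb under GSK-LSD1, and an E5 region inside the gene, 86096 bp downstream in DMSO, measured 0.6 and 0.8 kb. Of the 17 E5 bins in the window, 16 stayed E5 and none became E6 (0%, with a Wilson upper bound of 18.4%). E1 was absent from the window in DMSO and covered 13.8 kb in GSK-LSD1, and 45.3% (33.7 to 57.4) of the former E4 bins were E1. With E4 added to E5 and E6, the window had 0.6 kb less in GSK-LSD1.

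**Figure D2:**
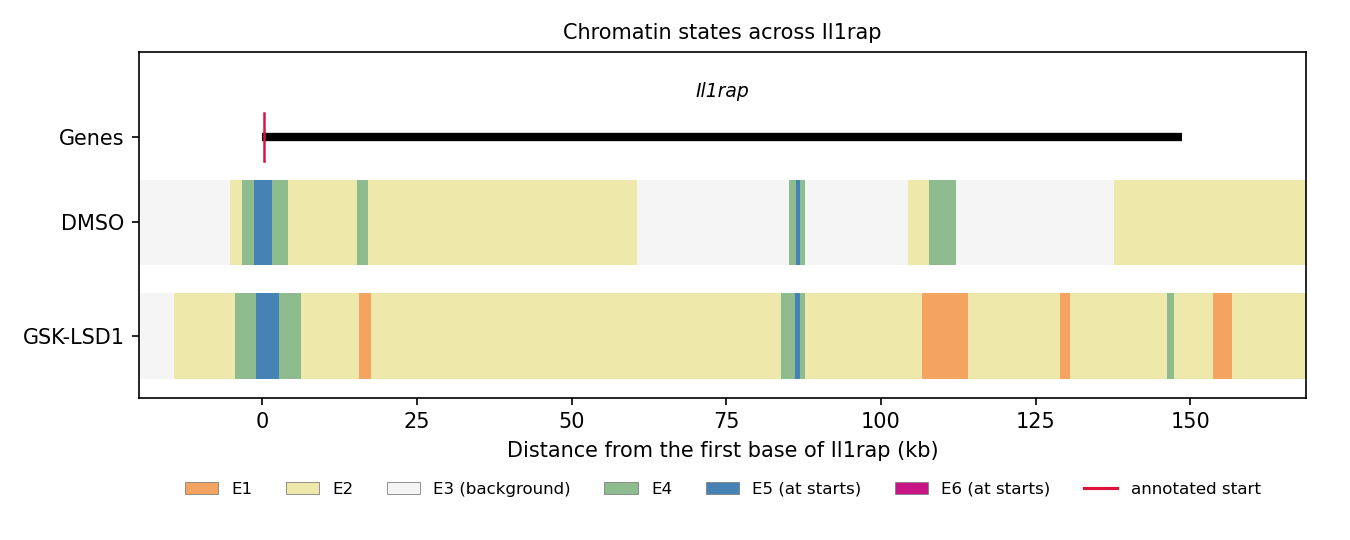
States across Il1rap and 20 kb either side in DMSO and GSK-LSD1, plotted against distance in kb from the first base of the gene; the black bar is the gene and the red line its annotated start. Of the background bins of DMSO, 87.2% are E2 and 6.88% stay background in GSK-LSD1. The E5 region at the start is 2.8 kb under DMSO and 3.8 kb under GSK-LSD1.

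The IL-36 receptor Il1rl2 (chromosome 1, 40324589 to 40367555) kept E5 at its start and carried E6 elsewhere in the gene. The E5 region at the start measured 1.4 kb under DMSO and 2.0 kb under GSK-LSD1. In the window start-type chromatin covered 2.2 kb in DMSO, all of it E5, and 7.2 kb in GSK-LSD1, of which 5.2 kb was E6. An E6 region of 3.0 kb inside the gene (40355801 to 40358800), 31212 bp downstream of the start, was wholly E4 in DMSO. A further E6 region of 0.4 kb close by (40359201 to 40359600) was also E4 in DMSO. With E5 alone the window had 0.2 kb less in GSK-LSD1, and with E4 added to E5 and E6 it had 2.6 kb less. E1 and E6 together covered 1.2 kb under DMSO and 27.8 kb under GSK-LSD1 (33.5%, 29.1 to 38.2).

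Il1rl1, which encodes the IL-33 receptor ST2 (chromosome 1, 40404864 to 40465418), had the largest difference of the family in start-type chromatin with 20 kb flanks; in the gene body alone Il18r1 had more, 7.0 kb against 5.6 kb, and with 10 kb flanks 8.6 kb against 7.8 kb. Its 100.6 kb window held 21.6 kb in DMSO (21.5%, 18.1 to 25.3) and 32.2 kb in GSK-LSD1 (32.0%, 28.1 to 36.2), at the 96.3rd percentile of all genes. The states exchanged places: E5 covered 15.2 kb under DMSO and 0.6 kb under GSK-LSD1, and E6 covered 6.4 and 31.6 kb. By E5 alone the window therefore had 14.6 kb less in GSK-LSD1, and with E4 added to E5 and E6 it had 6.6 kb less. E1 covered 0.8 kb under DMSO and 57.8 kb under GSK-LSD1, and E2, the broad state of DMSO, covered 60.6 and 10.2 kb. E1 and E6 together covered 7.2 kb and then 89.4 kb, a difference at the 99.1st percentile. These window totals take in the starts of Il18r1. In the body of Il1rl1 itself, E5 covered 10.8 kb under DMSO and 0.6 kb under GSK-LSD1, and E6 covered 0.4 and 16.2 kb.

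Both Il1rl1 starts shown above lay in or beside start-type chromatin before treatment. The annotated gene begins upstream of both, at 40404864, where the state was E2 in both segmentations. The distal start (40429570) lay in an E5 region of 6.4 kb in DMSO and in a region of 8.8 kb in GSK-LSD1, where it was E6. The proximal start (40439629) was E4 in DMSO, 229 bp from the nearest E5. In GSK-LSD1 it was E6, within a region of 5.0 kb that took in 2.8 kb of former E5 and 2.2 kb of former E4. Upstream of the gene, between Il1rl2 and Il1rl1, a region that overlaps no coding gene was E5 over 0.8 kb in DMSO (40380601 to 40381400) and E6 over 1.8 kb in GSK-LSD1 (40380201 to 40382000).

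The IL-18 receptor chain Il18r1 (chromosome 1, 40465552 to 40500854) lay wholly within E1 and E6 in GSK-LSD1. Of its 35.2 kb, E6 covered 18.4 kb and E1 the other 16.8 kb, whereas in DMSO the same states covered 7.0 and 2.2 kb. All 3 annotated starts, which span less than 1 kb, were E6 in both segmentations. The region around them measured 7.8 kb in DMSO, 6.0 kb of it E6, and 17.6 kb in GSK-LSD1, all E6 (40463201 to 40480800). In DMSO that stretch held 12 kb of E5 and E6 in 4 separate regions and 5.6 kb of E4. It was the longest start-type region of the cluster; the genome's median was 1.80 kb under DMSO and 2.20 kb under GSK-LSD1, and the longest were 28.2 and 44.2 kb. The region also covers the last part of Il1rl1, so it cannot be assigned to either gene. In the window, start-type chromatin covered 22.4 kb in DMSO (29.8%, 25.4 to 34.6) and 32.0 kb in GSK-LSD1 (42.6%, 37.7 to 47.6), but E5 alone was 7.8 kb less in GSK-LSD1.

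Il18rap, the accessory IL-18 chain (chromosome 1, 40515362 to 40551707), was also E6 at its start in both segmentations. The region there measured 5.6 kb in DMSO, 1.8 kb of it E5, and 6.6 kb in GSK-LSD1, of which 0.2 kb was E5. Start-type chromatin in the 76.4 kb window covered 12.4 kb in DMSO (16.2%, 12.9 to 20.3) and 17.8 kb in GSK-LSD1 (23.3%, 19.3 to 27.8), and these intervals overlap. E5 alone was 3.8 kb less in GSK-LSD1. Within the gene, E1 and E6 covered 2.4 of 36.4 kb under DMSO and 29.8 kb under GSK-LSD1. Across the end of Il18r1, a 7.8 kb E6 region at 40497601 to 40505400 held 2 start-type regions of 3.8 and 1.0 kb in DMSO.

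Because ST2 and the IL-18 receptor are known from mast cells, basophils and lymphoid cells, markers of those cells were read in the same way. Of 8 mast cell and basophil markers, 7 had more start-type chromatin in their windows in GSK-LSD1, against 66.7% of all genes. The count was 10 of 10 for granulocyte and progenitor markers and 4 of 9 for T, NK and innate lymphoid markers. It was 3 of 4 for B cell markers and 4 of 5 for stroma and epithelium markers. The median difference was 5.60 kb for granulocyte and progenitor markers. It was 1.70 kb for mast cell and basophil markers and 0 kb for the lymphoid ones. The summed area of the mast cell and basophil markers was 42.8 kb under DMSO and 71.0 kb under GSK-LSD1. Their windows held from 0 to 17.0 kb and from 0 to 26.4 kb. E5 or E6 lay at an annotated start of 4 of 7 of them in DMSO (55.6% of all genes), namely Kit, Cpa3, Fcer1a and Gata2, and of 4 in GSK-LSD1, where Mcpt8 had gained it and Fcer1a had lost it. The mast cell protease Tpsb2 had none in its window in either segmentation. Of 9 T, NK and innate lymphoid markers, Cd8a, Il7r, Ncr1 and Bcl11b had 0 kb in both, and Tbx21 was the only gene of the 7 with an annotated start to carry E5 or E6 there. The lymphoid sum was 18.6 kb under DMSO and 37.4 kb under GSK-LSD1. What part such cells, or a mast cell or basophil programme in the leukaemia cells, had in the states at Il1rl1, Il18r1 and Il18rap was not tested. Granulocyte and progenitor markers had E5 or E6 at a start of 3 of 8 genes in DMSO and 7 of 8 in GSK-LSD1. For B cell markers the count was 0 of 2 in both, and for stroma and epithelium 1 of 3 in both, Epcam. The share of all genes was 55.6% in DMSO and was not computed for GSK-LSD1. Of the 21044 annotated starts, 49.7% were E5 and 4.62% E6 in DMSO, and 25.3% and 31.0% in GSK-LSD1. The marker lists are short and their differences were not tested.

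Mapped as 1 locus, the chromosome 1 cluster ran over 507.2 kb (40064601 to 40571800) with the genes in the order Il1r2, Il1r1, Il1rl2, Il1rl1, Il18r1 and Il18rap. Of its bins, 43.7% had the same state in both segmentations, against 81.8% over the genome. These shares are not like for like, because background was 73.3% of the genome but 29.8% of the cluster in DMSO. Background bins stayed background in 91.0% of cases over the genome and in 37.0% in the cluster. Start-type chromatin covered 39.2 kb in DMSO (7.73%, 6.75 to 8.83) and 63.4 kb in GSK-LSD1 (12.5%, 11.3 to 13.8), a ratio of 1.62; the genome went from 2.20% to 3.61%, a change of similar proportion. E5 alone covered 24.4 kb under DMSO and 9.0 kb under GSK-LSD1, and E6 alone 14.8 and 54.4 kb. E1 and E6 together covered 20.4 kb in DMSO (4.02%, 3.32 to 4.86) and 187.6 kb in GSK-LSD1 (37.0%, 35.1 to 38.9), a ratio of 9.20; the genome went from 0.700% to 6.81%. Marked chromatin went from 70.2% (68.4 to 71.9) to 87.6% (86.3 to 88.8) of the cluster and from 26.7% to 29.9% of the genome. The intervals treat bins as independent, which neighbouring bins are not, and they cover counting error only.

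**Figure D3:**
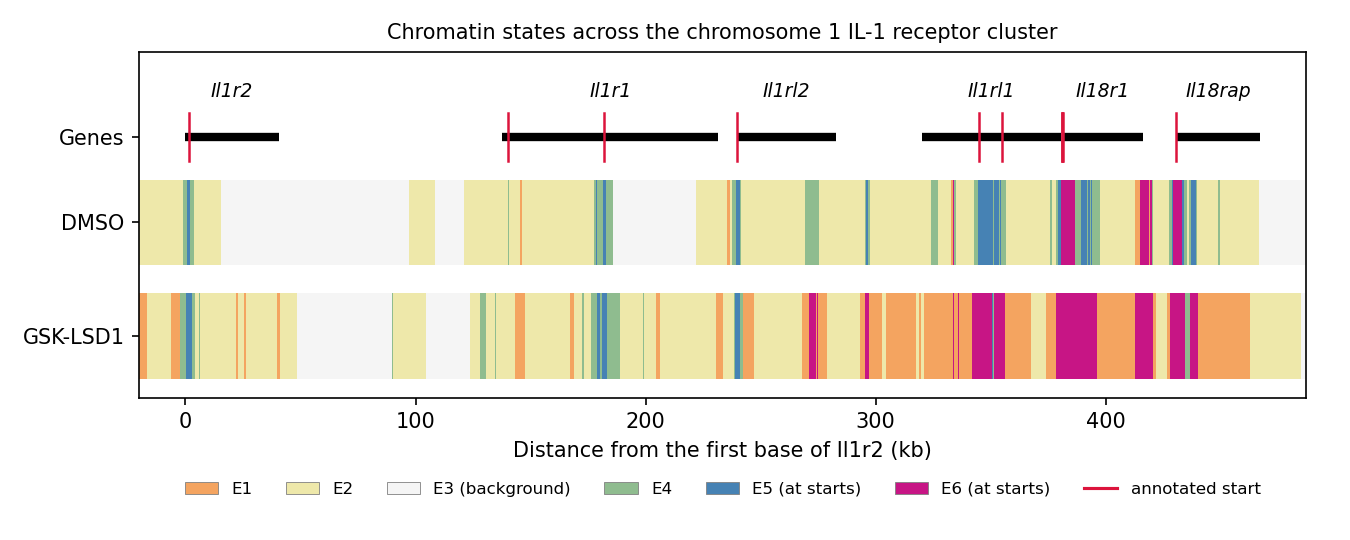
States across the chromosome 1 cluster in DMSO and GSK-LSD1, plotted against distance in kb from the first base of Il1r2; black bars are genes and red lines annotated starts. E1 and E6 fill most of the right-hand side, from Il1rl1 to Il18rap, in GSK-LSD1, while the gap between Il1r2 and Il1r1 stays mostly E3.

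Shares of E1 and E6 differed along the locus. On the IL-1 receptor side E1 and E6 covered little of the genes in GSK-LSD1, with 4.93% of Il1r2, 0.412% of the gap between Il1r2 and Il1r1, and 9.38% of Il1r1, although they covered 7.6 kb of the 20 kb before Il1r2. The share was 36.3% in Il1rl2, 63.4% in the gap after it, 86.8% in Il1rl1, 100% in Il18r1, 67.1% in the next gap and 81.9% in Il18rap. In DMSO the same states covered 0% of Il1r2 and Il1rl2, 0.853% of Il1r1, 1.98% of Il1rl1, 26.1% of Il18r1 and 6.59% of Il18rap. The gap between Il1r2 and Il1r1 was mostly background in both segmentations, 71.0% in DMSO and 62.6% in GSK-LSD1. No background bin remained in the body of any of the 7 genes in GSK-LSD1, whereas the bodies of Il1r2, Il1r1, Il18rap and Il1rap held 25.2, 36.4, 0.6 and 66.8 kb in DMSO. The 20 kb after Il18rap was wholly background in DMSO, but in GSK-LSD1 E2 covered 18.0 kb of it, and it held no E1 or E6 in either.

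**Figure D4:**
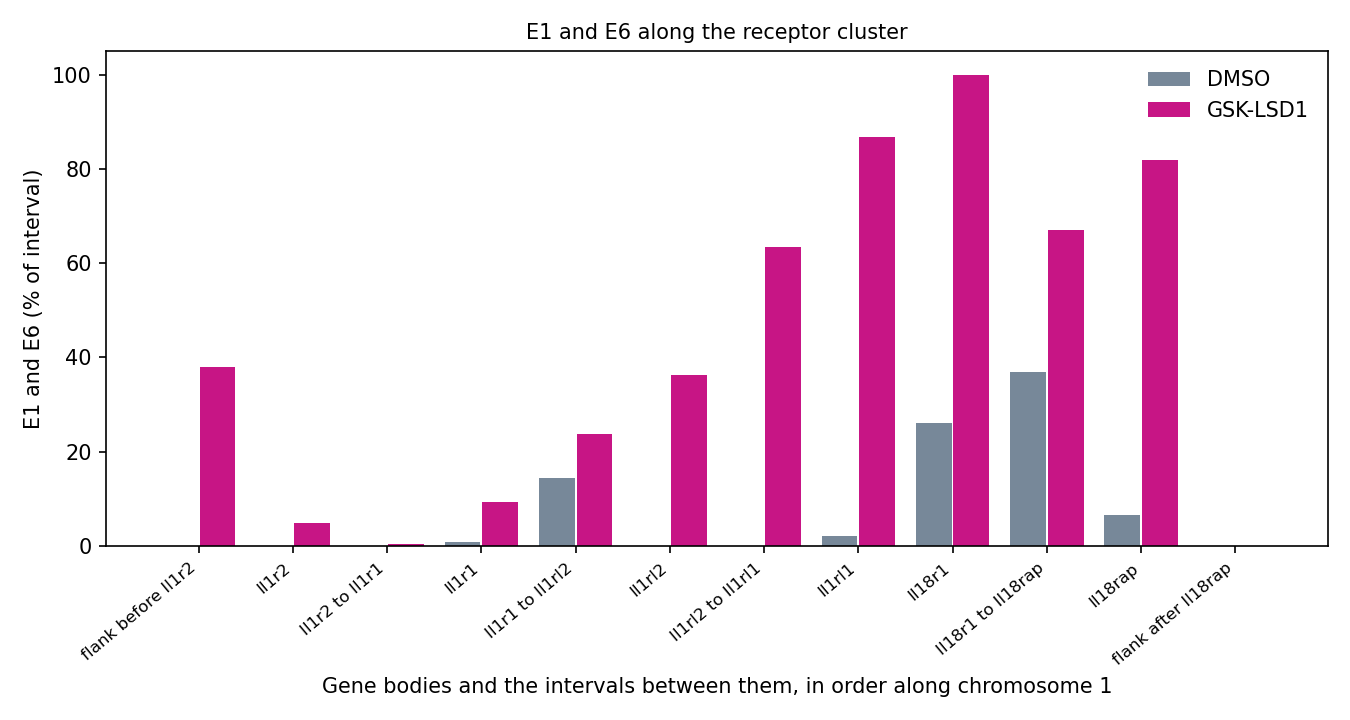
Share of each gene body and each gap of the chromosome 1 cluster in E1 or E6, in percent, in DMSO (grey) and GSK-LSD1 (magenta), 1 segmentation each; the 133 bp gap between Il1rl1 and Il18r1 is left out. The GSK-LSD1 bars stand at 4.93% for Il1r2 and 100% for Il18r1, and the flank after Il18rap has 0% in both.

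By origin, E6 bins of the cluster that had not been E6 in DMSO were mainly former E5 (19.4 kb) and E4 (16 kb). Of 122 bins that were E5 in DMSO, 79.5% (71.5 to 85.7) were E6 in GSK-LSD1 and another 18.9% stayed E5; over the genome the shares were 51.3% and 44.4%. Of E4 bins, 38.3% (32.0 to 45.0) were E6 and 28.2% E1, against 19.9% and 21.6% over the genome. E2 bins were E1 in GSK-LSD1 in 42.8% of cases (40.2 to 45.5), against 17.0%. Background bins were E2 in 57.5% (54.0 to 61.0), against 8.30%, and all 74 E6 bins of DMSO were E6 again. The E5 bins at the starts of Il1r2, Il1r1 and Il1rl2 were the ones that stayed E5, along with short pieces in Il1rl1.

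**Figure D5:**
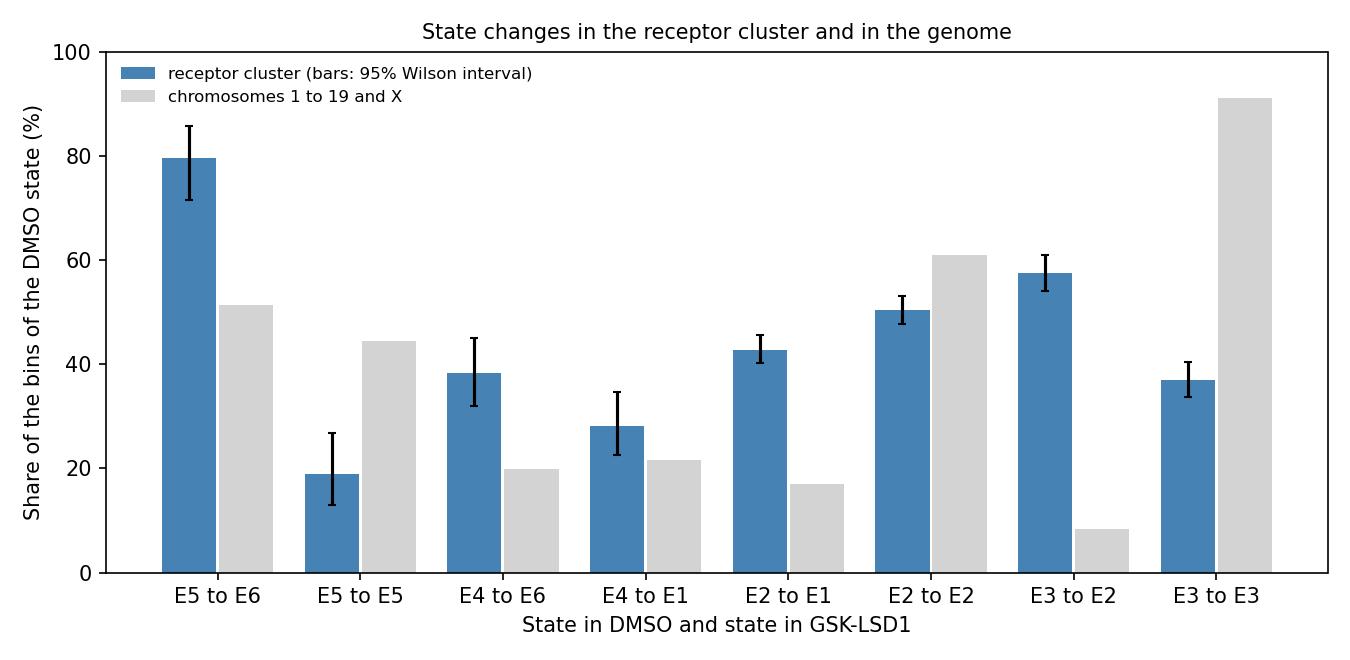
For each DMSO state, the percentage of its 200 bp bins with the given GSK-LSD1 state, in the receptor cluster (blue, with 95% Wilson intervals for counting error only) and on chromosomes 1 to 19 and X (grey). E5 bins were E6 in 79.5% in the cluster and 51.3% in the genome, and E3 bins were E2 in 57.5% and 8.30%.

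Start-type chromatin of the cluster lay in 18 separate regions in DMSO and 16 in GSK-LSD1, with medians of 1.30 and 2.50 kb. In GSK-LSD1, 5 of the 16 overlapped no start-type region of DMSO: 2 inside Il1r1, the E6 pair inside Il1rl2 named above, and a 0.4 kb region inside Il1rl1 (40420601 to 40421000). One region of 0.4 kb in Il1r1 (40263001 to 40263400) was start-type in DMSO and E4 in GSK-LSD1. Unbroken stretches of E1 and E6 reached 48.2 kb in GSK-LSD1, from the last part of Il1rl1 through Il18r1 (40458601 to 40506800). That stretch ranked 366th of 26621 in the genome, where the median was 3.20 kb, and in DMSO it held 19.8 kb of E2, 8.8 kb of E4, 6.2 kb of E5, 10.6 kb of E6 and 2.8 kb of E1. Others of 29.6 and 16.2 kb lay within Il1rl1, and 1 of 26.0 kb lay within Il18rap. The longest in the cluster in DMSO was 7.4 kb (40497401 to 40504800).

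Windows of other genes were compared with that of Il1rl1 by the shares of all 6 states in both segmentations, leaving out genes within 1 Mb of it. The distance was 0.5 of the summed absolute difference in shares, averaged over the segmentations, and used 12 shares. Among the most alike were Ugcg (4.82%), which makes glucosylceramide, Ldha (5.79%), a lactate dehydrogenase, 1110059E24Rik (5.97%) and Ptpre (6.11%), a tyrosine phosphatase. These windows share the genome-wide move to E1 and E6, and the likeness is a description.

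A list of ligands and related genes had 0 to 5.6 kb of start-type chromatin per window in DMSO and 0 to 7.6 kb in GSK-LSD1. Of its 12 genes for ligands, antagonists, IL-18 binding protein and the IL-1 converting enzyme, 11 were matched, and Il36rn was not analysed here. Start-type area was larger in GSK-LSD1 in 8 of them and equal in 3, near the 66.7% of all genes, with a median difference of 0.600 kb against 1.40 kb over all genes. The largest were Il1rn, the IL-1 receptor antagonist, with 3.0 kb under DMSO and 7.6 kb under GSK-LSD1, Il18 with 3.4 and 6.0 kb, and Il1f10 with 0.4 and 2.8 kb. Il1b and the IL-36 genes Il36a and Il36b had 0 kb in both. Of 10 with an annotated start, only Casp1, the IL-1 converting enzyme, had E5 or E6 there in DMSO, against 55.6% of all genes. In GSK-LSD1 Casp1 and the IL-36 gene Il36g did. Il36g had 0 kb under DMSO and 0.6 kb under GSK-LSD1.

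The signalling genes downstream of the receptors had start-type chromatin throughout. Of 22, 21 had a larger area in GSK-LSD1 and 1 an equal one, with a median difference of 4.90 kb, against 66.7% larger and a median of 1.40 kb over all genes. All 18 with an annotated start had E5 or E6 there in both segmentations, against 55.6% of all genes in DMSO. The share of all genes was not computed for GSK-LSD1. Irak2, a kinase of the receptor complex, had 20.2 kb of it in DMSO and 55.2 kb in GSK-LSD1. Nfkb1, a subunit of NF-kB, had 15.0 and 34.4 kb, and Irak3, a kinase-like inhibitor of the complex, 13.2 and 26.6 kb. At the other end were Tab3 with 2.8 kb in both, the ubiquitin ligase Traf6 with 2.8 and 3.8 kb, and Peli3 with 9.2 and 10.2 kb. Among relatives of the receptors, Sigirr, an inhibitory member, had 7.6 and 14.2 kb and gained start-type chromatin at a gene end. Il1rapl1 and Il1rapl2, known from neurons, had 0 kb in both.

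Set beside 2 other lists, the median difference in start-type area of the family was 5.0 kb. It was 1.40 kb for a Toll-like receptor list of 13 genes that includes Cd14, and 6.80 kb for 15 cytokine receptors. E1 and E6 gave medians of 26.6 kb for the family, 1.40 kb for the Toll-like receptor list and 39.8 kb for the cytokine receptors. Start-type area was larger in 11 of the 13 genes of the Toll-like receptor list, Cd14 among them, and smaller in 1. It was larger in 14 of 15 cytokine receptors and equal in 1, against 66.7% larger over all genes. E5 or E6 lay at an annotated start of 7 of 7 members in both segmentations. The counts were 4 and then 6 of 10 Toll-like receptor genes, and 10 and then 11 of 11 cytokine receptors. The share of all genes was 55.6% in DMSO and was not computed for GSK-LSD1. These lists are short and the differences between them were not tested.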

How the data were processed

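Chromatin immunoprecipitation sequencing covered 3 histone marks in 2 conditions with 1 library each, plus 1 input. Reads were aligned with Bowtie to mm10 (GRCm38), per the submitters' processing notes; the version, the segmentation tool, its thresholds, the use of the input and whether both conditions were fitted together are not stated there. The authors deposited, per the labels, 1 segmentation per condition, whose values are state labels (E1 to E6) and not counts, so depth is unknown. A state is a thresholded call, and a deeper or cleaner library can pass the threshold in more places.

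Segments were expanded to 200 bp bins (13168874 per segmentation on chromosomes 1 to 19 and X), and a bin belonged to a window if its centre did. Genes and starts came from RefSeq (GRCm38.p6). Shares have Wilson intervals from scipy 1.17.1, with pandas 2.3.3 and numpy 2.4.6; intervals cover counting error only. No p-value was computed, since bins and genes are not replicates. E5 bins were also planted in the DMSO segmentation, and the window calculation read back 200 of 200 planted gains among 21627 genes. Planting and reading used the same window rule, so this checks the arithmetic only and not whether states were called correctly.

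The text names all members, genes among the 5 most like Il1rl1 (1 of them is not reported here), and from each gene list the 3 largest and 3 smallest differences in start-type area and genes that gained or lost E5 or E6 at an end; for Toll-like and cytokine receptors and markers only counts and the genes needed are given. The members and lists were chosen with earlier results of these data known. Alternatives changed the flank, the states counted, single-bin segments, region ends and the background state.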

Additional observations from a re-analysis of the deposited data

How the results depend on the processing

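With 1 segmentation per condition, no library could be left out. No paired analysis was possible because each condition has 1 segmentation. The count of windows with more start-type chromatin in GSK-LSD1 was 7 of 7 with flanks of 0, 10 and 50 kb, with single-bin segments merged and with regions trimmed by 200 bp. It was 3 with E5 alone (4 had less), 4 with E6 alone and 4 with E4, E5 and E6 together (3 had less). With E5 alone the cluster's share was 4.81% in DMSO and 1.77% in GSK-LSD1, with E6 alone 2.92% and 10.7%, and with E4, E5 and E6 together 16.0% and 17.0%. Marked chromatin was 17.1% and 43.2% of the cluster with E2 also taken as background, and 68.1% and 83.6% with 50 kb flanks. Each member difference was set against the Newcombe interval of the reported difference, which is built from the Wilson intervals of both shares. Over 56 member differences under 8 settings, 38 lay inside that interval, 11 lay outside it, and 7 reversed. With E5 alone the reversed differences were -0.2 kb for Il1rl2, -14.6 kb for Il1rl1, -7.8 kb for Il18r1 and -3.8 kb for Il18rap. With E4, E5 and E6 together they were -2.6 kb for Il1rl2, -6.6 kb for Il1rl1 and -0.6 kb for Il1rap. With E5 alone, bins that went from E5 to E6 leave the count. In the wider count, E4 bins that became E1 leave it: 28.2% of them in the cluster and 45.3% in the Il1rap window. With flanks of 50 kb the differences were 18.6 kb for Il1rl1, 16 kb for Il18r1 and 10.4 kb for Il18rap, and in the gene body alone that of Il18rap was 1.8 kb.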

Other observations

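Just outside the Il1r2 window, an unbroken stretch of E1 and E6 of 67.0 kb (chromosome 1, 40001001 to 40068000) in GSK-LSD1 overlapped Map4k4, a kinase gene, and ended inside the flank before Il1r2. It ranked 158th of 26621 such stretches in the genome. In DMSO the same bases were 55.4 kb of E2, 7.0 kb of E4, 4.0 kb of E1 and 0.6 kb of E5.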
